A study of Mus musculus with 18 samples.

Results

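Macrophages bind antibody-coated particles through Fc gamma receptors, and 6 genes of this system are described here: *Fcgr1*, *Fcgr3* and *Fcgr4*, which encode the ligand-binding chains of the activating receptors, *Fcgr2b*, which encodes the inhibitory receptor, *Fcer1g*, which encodes the signalling subunit shared by the activating receptors, and *Fcgrt*, which encodes the heavy chain of the neonatal Fc receptor. The genes were chosen by name, with earlier results of these data known. They are 6 of the 16314 gene symbols in the deposited count table, and all 6 passed the filter on low counts, which left 12021 genes to test. RNA-seq was performed on bone marrow-derived macrophages (BMDMs) of C57BL6/J mice, differentiated for 7 days with macrophage colony-stimulating factor (M-CSF) at 50 ng/ml. The *Prep*-/- cells came from mice lacking *Prep*, the gene of prolyl endopeptidase (PREP), in all tissues, and the controls were heterozygous littermates (*Prep*+/-), so that the controls also carried a disrupted allele and wild-type cells were not analysed here. The age of the marrow donors is not given in the sources used here. M0 cells received no further treatment, M1 cells received lipopolysaccharide (LPS) at 50 ng/ml and M2 cells received interleukin-4 (IL-4) and interleukin-13 (IL-13), each at 20 ng/ml, for 24 h. Each of the 6 groups held 3 libraries.

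The activating receptors cross the membrane together with a dimer of the FcR gamma chain, the product of *Fcer1g*, whose tyrosine-based activation motif (ITAM) is phosphorylated by Src family kinases and recruits the kinase SYK once IgG clusters the receptors, which starts the uptake of the particle. The inhibitory receptor binds the same ligands and carries an inhibitory motif that recruits the phosphatase SHIP1, so that the balance of both receptor types sets the threshold of the cell. The neonatal Fc receptor acts inside the cell, where it binds IgG in acidic endosomes together with beta-2-microglobulin and returns it from degradation. The study measured the uptake of latex beads coated with rabbit IgG in M0 and M2 cells. No value here relates transcript levels to that uptake.

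Library depth ranged from 19068237 to 22598279 counts. *Prep* was at 26.0 to 42.5 CPM (counts scaled to a common library size) in the 9 *Prep*+/- libraries and 1.48 to 3.22 CPM in the 9 *Prep*-/- libraries, so all 18 libraries matched their genotype label. All 9 listed macrophage markers were above 1 CPM, and their summed level ranged from 10793 to 48619 CPM. Listed markers of T and natural killer cells summed to at most 0.285 CPM, those of dendritic cells to at most 2.64 CPM and those of mast cells and basophils to at most 6.70 CPM. Of the listed markers, the count table held 3 of 8 for T and natural killer cells, 6 of 6 for dendritic cells and 4 of 8 for mast cells and basophils. *Prep*-/- M0 replicate 3 and *Prep*-/- M2 replicate 3 stood apart from the other libraries of their groups: chi-square per degree of freedom over genes was 111 to 120 against their group mates and 9.87 to 49.1 in the other pairs of replicates. No pair of replicates agreed within sampling noise. The study calls the libraries of a group biological replicates. Neither the labels nor the study's methods say what a replicate number marks, such as a mouse or a culture, so the p-values measure the spread between these libraries.

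*Fcgr2b*, *Fcgr4*, *Fcgr3* and *Fcer1g* lie on chromosome 1 and *Fcgr1* and *Fcgrt* on chromosomes 3 and 7 (GRCm39). *Fcgr2b* (chr1:170786186-170804177, minus strand), *Fcgr4* (chr1:170846466-170857330, plus strand), *Fcgr3* (chr1:170878738-170893549, minus strand) and *Fcer1g* (chr1:171057141-171062219, minus strand) are neighbours in a single cluster, whereas *Fcgr1* stands alone (chr3:96190225-96201338, minus strand), as does *Fcgrt* (chr7:44742412-44756819, minus strand). *Fcgr2b* and *Fcgr3* are near copies in their ligand-binding part. Their canonical GENCODE transcripts share a segment of 512 bases that differs at 20 positions, and reads of this segment could be assigned to the wrong gene of the pair, depending on how the authors' counting treated them. The longest identical run within it was 129 bases, so an untrimmed 150-base read that lies wholly in the segment covers at least 1 difference. The stretch of 150 bases in which most of the differences lie is shown for that reason, with the 14 differing bases in capitals. It is coding sequence of both genes, in exon 3 of 5 of *Fcgr3* (chr1:170885367-170885516) and almost wholly in exon 3 of 7 of *Fcgr2b* (chr1:170795656-170795803), whose first 2 bases lie at the end of exon 2.

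Fcgr2b: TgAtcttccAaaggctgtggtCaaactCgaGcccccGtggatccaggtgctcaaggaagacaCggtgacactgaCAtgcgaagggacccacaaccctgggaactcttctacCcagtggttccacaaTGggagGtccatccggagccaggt

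Fcgr3: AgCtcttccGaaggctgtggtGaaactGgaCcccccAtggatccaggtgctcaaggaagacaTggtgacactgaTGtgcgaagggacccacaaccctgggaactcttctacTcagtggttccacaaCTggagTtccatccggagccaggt

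The annotation also places other genes over 5 of the 6: *Gm38204* over *Fcgr2b*, *Gm35090* over *Fcgr4* and *Gm45669* over *Fcgrt* on the opposite strand, and *Mir6546* over *Fcgr3*, *Gm26110* over *Fcgr4* and *Gm71631* over *Fcer1g* on the same strand. The library kit was stranded, and whether counting used strand is not given in the sources used here.

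The windows before the RefSeq starts were searched for letters of known elements. RefSeq promoter windows (GRCm38.p6 table, each found once in GRCm39 by exact match) were searched on both strands, from 250 bases before to 50 bases after the start, for GAGGAA, the core of sites of PU.1, a lineage factor of macrophages, for TTCNNNGAA, the STAT-type GAS element, which reads the same on both strands, and for GAAANNGAA, an interferon response type of element. GAGGAA lies in 28.3% of all 32851 promoters in that table, TTCNNNGAA in 8.3% and GAAANNGAA in 8.6%. The *Fcgr1* window held TTCNNNGAA, beginning 109 bases before the start, and GAGGAA on the minus strand of the gene, beginning 55 bases before it. *Fcgr4* held GAAANNGAA beginning 73 bases and GAGGAA on the minus strand beginning 22 bases before the start. *Fcgr3* has 2 listed starts and held GAGGAA alone, on the minus strand, beginning 6 bases before one start and 15 bases before the other, and the windows of *Fcgr2b*, *Fcer1g* and *Fcgrt* held none of the 3. These windows are not alike: of the 250 bases before the start, the GENCODE annotation places 29 in exons for *Fcgr4* and 53 for *Fcgr1*, but 187 for *Fcgr2b*, 219 for *Fcgr3* and all 250 for *Fcer1g* and *Fcgrt*, and the *Fcgr3* and *Fcgrt* windows lie well inside the GENCODE spans of their genes. Genes with and without a match are therefore not contrasted. No matches overlapped. A match describes letters and is not a measured binding site. For each of the 3 genes with matches, 1 window is printed in the direction of the gene, with matches in capitals. These are *Fcgr1* at chr3:96201309-96201535 (minus strand, 227 bases, which stop short of the start from which the distances above were counted), *Fcgr4* at chr1:170846245-170846494 (plus strand, 250 bases) and *Fcgr3* at chr1:170886973-170887002 (minus strand, the last 30 bases before its first listed start).

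Fcgr1: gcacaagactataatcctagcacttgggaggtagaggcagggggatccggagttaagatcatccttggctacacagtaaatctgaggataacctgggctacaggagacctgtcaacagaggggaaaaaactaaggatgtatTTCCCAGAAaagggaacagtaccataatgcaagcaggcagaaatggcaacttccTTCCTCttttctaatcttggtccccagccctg

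Fcgr4: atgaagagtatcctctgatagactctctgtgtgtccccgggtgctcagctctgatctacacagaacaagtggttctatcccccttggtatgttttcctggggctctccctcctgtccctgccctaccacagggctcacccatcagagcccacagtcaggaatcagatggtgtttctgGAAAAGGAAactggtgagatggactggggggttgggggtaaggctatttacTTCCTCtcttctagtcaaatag

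Fcgr3: ggttaagcaagagagtccatttccTTCCTC

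Transcripts of 5 of the 6 genes were more abundant in *Prep*-/- than in *Prep*+/- BMDMs in the M0 state, and fewer of them were called in M1 and M2 cells. A gene was called when the edgeR quasi-likelihood test gave a Benjamini-Hochberg adjusted p under 0.05 over all 12021 genes and the fold change was over 1.5. In M0, *Fcgr1*, *Fcgr2b*, *Fcgr3*, *Fcgr4* and *Fcgrt* were called higher and none lower, where 32.6% of all genes tested were called and 15.4% were called higher. The libraries of the genotypes did not overlap for 5 of the 6 in M0, as for 52.6% of all genes, for 5 in M1 (56.9% of all genes) and for 1 in M2 (42.1% of all genes). In M1, *Fcgr2b* and *Fcgr4* were called higher, where 22.5% of all genes were called and 12.3% called higher, and in M2 *Fcgr4* and *Fcgrt* were called higher, where 16.2% of all genes were called and 6.37% called higher. Over the 6 genes the median log2 fold change was 1.56 for M0 (all genes tested, 0.02), 0.36 for M1 (all genes, 0.04) and 0.43 for M2 (all genes, 0.03). These are bulk samples, in which fewer cells of a type and less RNA per cell cannot be told apart.

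**Figure D1:**
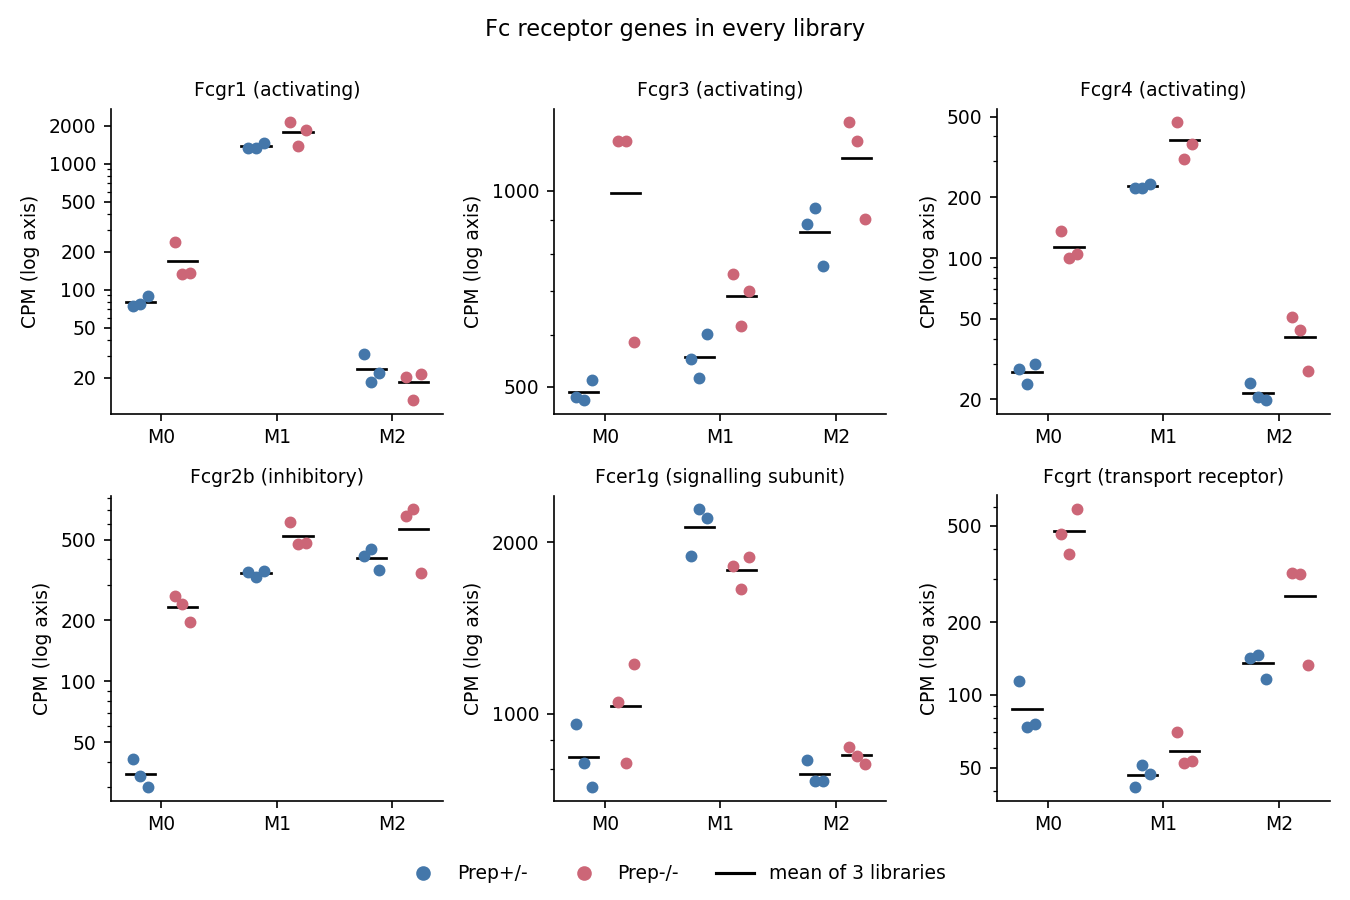
CPM on a log axis (y) of the 6 genes in each of the 18 libraries, by polarization state (x) and genotype (colour); bars mark the mean of 3 libraries. *Fcgr2b* in *Prep*+/- M0 libraries lies between 30.1 and 41.1 CPM, below all other groups, and *Fcgr1* lies at 1321 CPM or more in all 6 M1 libraries.

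*Fcgr1* encodes the high-affinity IgG receptor, which binds monomeric IgG. Its level was 73.9, 77.3 and 89.6 CPM in the *Prep*+/- M0 libraries and 239, 132 and 136 CPM in the *Prep*-/- M0 libraries. The genotypes did not overlap in M0, and the difference was 1.08 on the log2 scale (SE 0.24, 2.11-fold, edgeR adjusted p = 0.00161). In M1 it rose to 1325, 1321 and 1460 CPM in *Prep*+/- cells and to 2125, 1384 and 1851 CPM in *Prep*-/- cells. M1 libraries of the genotypes overlapped, and the genotype difference of 0.38 (SE 0.24, edgeR adjusted p = 0.212) was not called. The change from M0 to M1 was 17.1-fold in *Prep*+/- cells (log2 difference 4.09, SE 0.27, edgeR adjusted p = 4.15e-09) and 10.6-fold in *Prep*-/- cells (log2 difference 3.40, SE 0.26, edgeR adjusted p = 2.14e-08). M2 cells held the lowest levels, 30.8, 18.4 and 21.7 CPM in *Prep*+/- libraries and 20.4, 13.4 and 21.4 CPM in *Prep*-/- libraries. *Fcgr1* thus fell from M0 to M2, by 1.76 on the log2 scale in *Prep*+/- cells (SE 0.25, edgeR adjusted p = 7.48e-05) and by 3.20 in *Prep*-/- cells (SE 0.26, edgeR adjusted p = 7.72e-08). The genotype difference in M2 was -0.36 (SE 0.25, edgeR adjusted p = 0.313). The highest group mean was 97.1 times the lowest, the widest range of the 6 genes, and neighbouring groups in the order of the means overlapped only between the genotypes of M1 and between those of M2.

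*Fcgr3*, a low-affinity activating receptor for immune complexes, had the narrowest range, with the highest group mean 2.29 times the lowest. *Prep*+/- M0 libraries held 482, 477 and 513 CPM and *Prep*-/- M0 libraries 1193, 1193 and 584 CPM. The genotypes did not overlap, although replicate 3 of the *Prep*-/- M0 group, which stood apart over all genes, lay far below the other two and close to the *Prep*+/- level. The difference in M0 was 1.01 on the log2 scale (SE 0.21, edgeR adjusted p = 7.66e-04), and it was 1.27 without that replicate (edgeR adjusted p = 4.72e-06). M1 libraries held 551, 515 and 601 CPM in *Prep*+/- cells and 743, 620 and 701 CPM in *Prep*-/- cells, and M2 libraries held 889, 941 and 766 CPM and 1273, 1194 and 906 CPM, respectively. *Fcgr3* was higher in M2 than in M0 in *Prep*+/- cells (log2 difference 0.82, SE 0.21, edgeR adjusted p = 0.00951), and its genotype differences in M1 (0.31, SE 0.20, edgeR adjusted p = 0.247) and M2 (0.38, SE 0.20, edgeR adjusted p = 0.194) were not called. In *Prep*-/- cells its M1 level differed from M0 by -0.52 on the log2 scale (SE 0.20, edgeR adjusted p = 0.0373), under the fold minimum, and by -0.83 without *Prep*-/- M0 replicate 3 (edgeR adjusted p = 1.17e-04), which would be called. Leaving out *Prep*-/- M1 replicate 1 also gave a call, at -0.62. In the order of the means, *Prep*-/- M2, *Prep*-/- M0 and *Prep*+/- M2 came first and each overlapped with the next. *Prep*-/- M1, *Prep*+/- M1 and *Prep*+/- M0 followed without overlap between neighbours in that order. *Prep*-/- M0 (584 to 1193 CPM), not a neighbour of the M1 groups, also overlapped with *Prep*-/- M1 (620 to 743 CPM) and *Prep*+/- M1 (515 to 601 CPM).

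*Fcgr4* encodes an activating receptor of intermediate affinity, found in mice on monocytes, macrophages and neutrophils. It read 28.3, 23.8 and 30.02 CPM in *Prep*+/- M0 libraries and 135, 99.8 and 105 CPM in *Prep*-/- M0 libraries, which did not overlap. The difference was 4.14-fold (log2 difference 2.05, SE 0.20, edgeR adjusted p = 1.54e-06). It was the only one of the 6 genes called between the genotypes in all 3 states. In M1 the *Prep*+/- libraries held 223, 223 and 232 CPM and the *Prep*-/- libraries 468, 307 and 368 CPM, a difference of 0.75 on the log2 scale (SE 0.19, edgeR adjusted p = 0.00673). That call was lost without *Prep*-/- M1 replicate 1, the highest library, where the difference was 0.57. In M2 they held 24.0, 20.6 and 19.9 CPM and 51.2, 43.9 and 27.6 CPM, a difference of 0.93 (SE 0.20, edgeR adjusted p = 0.00272), again with no overlap. From M0 to M1, *Fcgr4* rose 8.25-fold in *Prep*+/- cells (log2 difference 3.04, SE 0.21, edgeR adjusted p = 6.06e-09) and 3.36-fold in *Prep*-/- cells (log2 difference 1.75, SE 0.20, edgeR adjusted p = 1.38e-06). From M0 to M2, it fell by 1.47 on the log2 scale in *Prep*-/- cells (SE 0.20, edgeR adjusted p = 1.74e-05), and the difference in *Prep*+/- cells was -0.35 (SE 0.20, edgeR adjusted p = 0.253). *Prep*-/- M2, *Prep*+/- M0 and *Prep*+/- M2, the lowest groups, each overlapped with the next in the order of the means.

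*Fcgr2b*, the inhibitory receptor, showed the largest genotype difference of the 6 genes in M0. *Prep*+/- M0 libraries held 41.1, 33.9 and 30.1 CPM and *Prep*-/- M0 libraries 264, 240 and 196 CPM. Every *Prep*-/- library was thus far above every *Prep*+/- library, and the difference was 6.66-fold (log2 difference 2.74, SE 0.22, edgeR adjusted p = 4.39e-07), larger in size than that of 98.1% of the genes tested. In M1 the libraries held 345, 329 and 349 CPM in *Prep*+/- cells and 611, 475 and 484 CPM in *Prep*-/- cells. The genotypes did not overlap in M1, and the difference was 0.62 on the log2 scale (SE 0.21, edgeR adjusted p = 0.0299), close to the fold minimum. Each *Prep*+/- M1 replicate and *Prep*-/- M1 replicate 1 decided that call, since the difference was 0.61, 0.59 and 0.63 without *Prep*+/- M1 replicates 1, 2 and 3 and 0.48 without *Prep*-/- M1 replicate 1, and was not called. In M2 the libraries held 414, 449 and 353 CPM in *Prep*+/- cells and 655, 706 and 342 CPM in *Prep*-/- cells. The *Prep*-/- M2 library that stood apart, replicate 3, lay below all *Prep*+/- libraries. The difference of 0.49 (SE 0.21, edgeR adjusted p = 0.0995) was not called, and without that replicate it was 0.76 (edgeR adjusted p = 0.00118), which would be called. The fit without it kept *Prep*+/- M2 replicate 3, the lowest of its group at 353 CPM. Same-numbered M2 libraries of the genotypes deviated together over all genes (r = 0.462 for replicate 3). *Fcgr2b* was higher after both treatments. In *Prep*+/- cells it was 9.73-fold higher in M1 than in M0 (log2 difference 3.28, SE 0.23, edgeR adjusted p = 7.62e-09) and 11.6-fold higher in M2 (log2 difference 3.53, SE 0.23, edgeR adjusted p = 1.41e-08). In *Prep*-/- cells it was 2.24-fold higher in M1 (log2 difference 1.17, SE 0.21, edgeR adjusted p = 1.84e-04) and 2.43-fold higher in M2 (log2 difference 1.28, SE 0.21, edgeR adjusted p = 1.35e-04). The *Prep*-/- M0 level lay between the *Prep*+/- M0 level and the *Prep*+/- M1 and M2 levels, without overlap with any of them. Of all neighbours in the order of the means, only *Prep*-/- M2 and *Prep*-/- M1, the highest, overlapped. Beyond neighbours, *Prep*-/- M2 (342 to 706 CPM) also overlapped with *Prep*+/- M2 (353 to 449 CPM) and *Prep*+/- M1 (329 to 349 CPM).

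*Fcer1g* encodes the FcR gamma chain, without which the activating receptors neither signal nor remain stable at the surface. *Prep*+/- M0 libraries held 958, 818 and 744 CPM and *Prep*-/- M0 libraries 1050.4, 821 and 1224 CPM. The genotypes overlapped, and the difference of 0.30 on the log2 scale (SE 0.14, 95% interval 0.00747 to 0.585, edgeR adjusted p = 0.0832) was not called. In M1 the libraries held 1893, 2287 and 2208 CPM in *Prep*+/- cells and 1817, 1655 and 1889 CPM in *Prep*-/- cells, so that the *Prep*-/- libraries were the lower ones, without overlap. That difference of -0.25 (SE 0.14, edgeR adjusted p = 0.155) was not called either. M2 libraries held 762 to 829 CPM in *Prep*+/- cells and 818 to 876 CPM in *Prep*-/- cells, with a difference of 0.11 (SE 0.14, edgeR adjusted p = 0.602). *Fcer1g* rose in M1 in both genotypes, 2.53-fold in *Prep*+/- cells (log2 difference 1.34, SE 0.14, edgeR adjusted p = 5.39e-07) and 1.73-fold in *Prep*-/- cells (log2 difference 0.79, SE 0.14, edgeR adjusted p = 1.20e-04). Its differences between M2 and M0 were -0.10 in *Prep*+/- cells (SE 0.14, edgeR adjusted p = 0.665) and -0.29 in *Prep*-/- cells (SE 0.14, edgeR adjusted p = 0.101). The 4 groups of M0 and M2 each overlapped with the next in the order of the means, below both M1 groups.

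*Fcgrt*, the neonatal Fc receptor heavy chain, was the only one of the 6 genes called lower in M1 than in M0. *Prep*+/- M0 libraries held 113, 73.2 and 75.4 CPM and *Prep*-/- M0 libraries 465, 382 and 585 CPM. The genotypes did not overlap, and the difference was 5.46-fold (log2 difference 2.45, SE 0.28, edgeR adjusted p = 5.33e-06). M1 libraries held 41.6, 51.1 and 46.8 CPM in *Prep*+/- cells and 70.1, 52.1 and 53.3 CPM in *Prep*-/- cells, the lowest levels of the gene. The fall from M0 to M1 was 1.88-fold in *Prep*+/- cells (log2 difference -0.91, SE 0.27, edgeR adjusted p = 0.00957) and 8.15-fold in *Prep*-/- cells (log2 difference -3.03, SE 0.29, edgeR adjusted p = 2.11e-07). Without *Prep*+/- M0 replicate 1, the highest of its group, the difference in *Prep*+/- cells was -0.70 and not called. The genotype difference left in M1 was 0.33 (SE 0.27, edgeR adjusted p = 0.350), with no overlap of the libraries. M2 libraries held 142, 146 and 117 CPM in *Prep*+/- cells and 319, 317 and 132 CPM in *Prep*-/- cells. They overlapped through *Prep*-/- M2 replicate 3, and the difference of 0.93 (SE 0.27, edgeR adjusted p = 0.0182) was called. It was 1.25 without that replicate, and 0.73, 0.76 and 0.84, not called, without *Prep*-/- M2 replicate 1, *Prep*-/- M2 replicate 2 and *Prep*+/- M2 replicate 3. The fit that gave 1.25 kept *Prep*+/- M2 replicate 3, the lowest of its group at 117 CPM. From M0 to M2, *Fcgrt* fell by 0.90 on the log2 scale in *Prep*-/- cells (SE 0.27, edgeR adjusted p = 0.0116), or by 0.73 without *Prep*-/- M0 replicate 3, which was not called, and the difference in *Prep*+/- cells was 0.63 (SE 0.27, edgeR adjusted p = 0.119). The order of the means ran from *Prep*-/- M0 through *Prep*-/- M2, *Prep*+/- M2, *Prep*+/- M0 and *Prep*-/- M1 to *Prep*+/- M1, with overlap between the M2 groups alone.

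**Figure D2:**
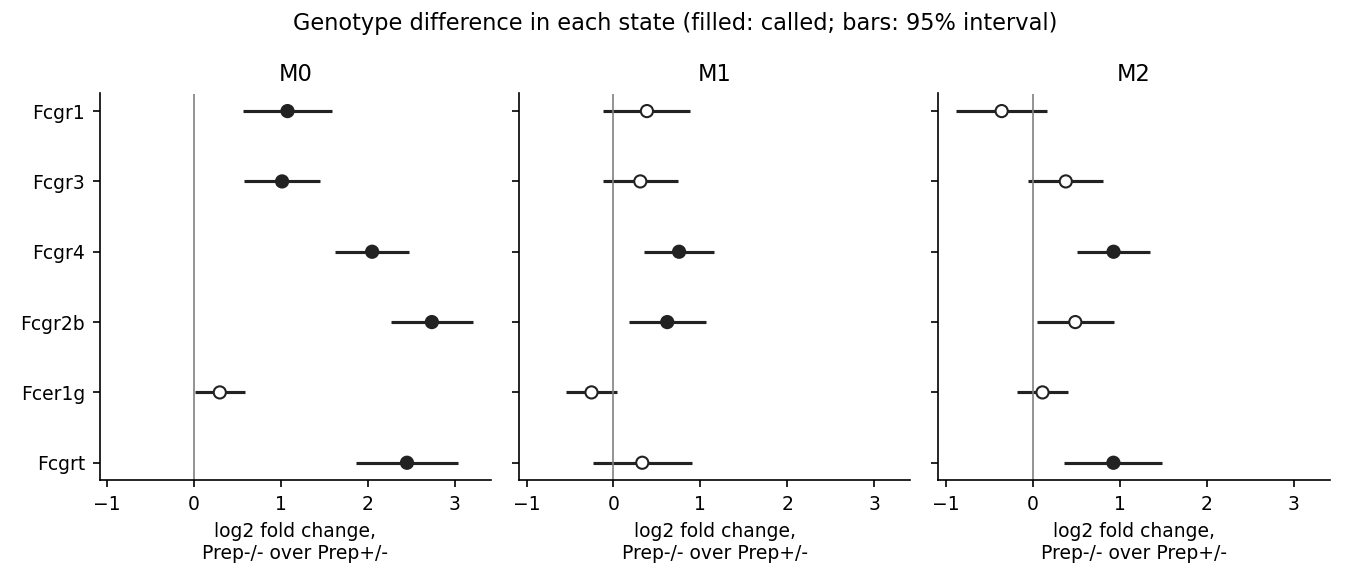
Log2 fold change of *Prep*-/- over *Prep*+/- cells (x) for the 6 genes (y) in M0, M1 and M2, with 95% intervals; filled points are called. In M0, 5 of the 6 points are called, from 1.01 for *Fcgr3* to 2.74 for *Fcgr2b*, and in M1 and M2 only 2 points are called in each panel.

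Whether the genotype difference depended on the state was tested directly, as the difference between 2 genotype differences in the same fit. Between M1 and M0 it was called for *Fcgr2b* (-2.12, SE 0.30, edgeR adjusted p = 1.67e-04), *Fcgrt* (-2.12, SE 0.38, edgeR adjusted p = 0.00103) and *Fcgr4* (-1.29, SE 0.27, edgeR adjusted p = 0.00319), where 21.1% of all genes were called and 9.15% were called in that direction. It was also below the adjusted p threshold, but under the fold minimum, for *Fcer1g* (-0.55, SE 0.19, edgeR adjusted p = 0.0475). For *Fcgr1* the difference between M1 and M0 was -0.69 (SE 0.34, edgeR adjusted p = 0.143) and was not called. Between M2 and M0 it was called for *Fcgr2b* (-2.25, SE 0.30, edgeR adjusted p = 4.75e-04), *Fcgrt* (-1.52, SE 0.38, edgeR adjusted p = 0.0192), *Fcgr1* (-1.44, SE 0.34, edgeR adjusted p = 0.0170) and *Fcgr4* (-1.12, SE 0.28, edgeR adjusted p = 0.0192), where 8.66% of all genes were called and 4.13% were called in that direction. Without *Prep*+/- M0 replicate 2 the count between M2 and M0 was 2 and without *Prep*+/- M2 replicate 1 it was 1, and *Fcgr2b* was among them both times. The *Fcgrt* difference between M2 and M0 was also not called without *Prep*+/- M0 replicate 3, at -1.43. The *Fcer1g* difference between M1 and M0 passed the fold minimum as well when any of 3 libraries was left out, namely *Prep*+/- M0 replicate 1 (-0.68), *Prep*-/- M0 replicate 2 (-0.70) and *Prep*+/- M1 replicate 1 (-0.65). For *Fcgr3* the differences were -0.70 between M1 and M0 (SE 0.29, edgeR adjusted p = 0.0849) and -0.64 between M2 and M0 (SE 0.29, edgeR adjusted p = 0.176), and both were called without *Prep*-/- M0 replicate 3, at -0.97 and -0.89. Between M2 and M1 none of the 6 was called by edgeR, where 11.9% of all genes were called. *Fcgr1* alone had an unadjusted p under 0.05 in that comparison (0.0445), and DESeq2 called 0 of the 6. Without *Prep*-/- M2 replicate 3, but with *Prep*+/- M2 replicate 3 kept, *Fcgrt* was called there, at 0.93. The contrasts between M1 and M0 and between M2 and M0 share the M0 libraries.

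Polarization moved the 6 genes in different directions. After treatment with LPS (M1), *Fcgr1*, *Fcgr2b*, *Fcgr4* and *Fcer1g* were called higher and *Fcgrt* was called lower than in M0, in both genotypes, where 37.7% of all genes were called in *Prep*+/- cells (16.7% higher, 20.9% lower) and 42.0% in *Prep*-/- cells (20.9% higher, 21.0% lower). Libraries of M1 and M0 did not overlap for 6 of the 6 in *Prep*+/- cells (65.2% of all genes) and for 5 in *Prep*-/- cells (58.5%). After treatment with IL-4 and IL-13 (M2), *Fcgr1* was called lower and *Fcgr2b* higher in both genotypes, where 12.9% of all genes were called in *Prep*+/- cells (6.09% higher, 6.77% lower) and 30.2% in *Prep*-/- cells (14.7% higher, 15.5% lower). Libraries of M2 and M0 did not overlap for 4 of the 6 in each genotype (45.9% and 44.4% of all genes). *Fcgr3* was called higher in M2 in *Prep*+/- cells, and *Fcgr4* and *Fcgrt* were called lower in M2 in *Prep*-/- cells. Within a genotype both comparisons use the same M0 libraries, so their values are not independent.

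**Figure D3:**
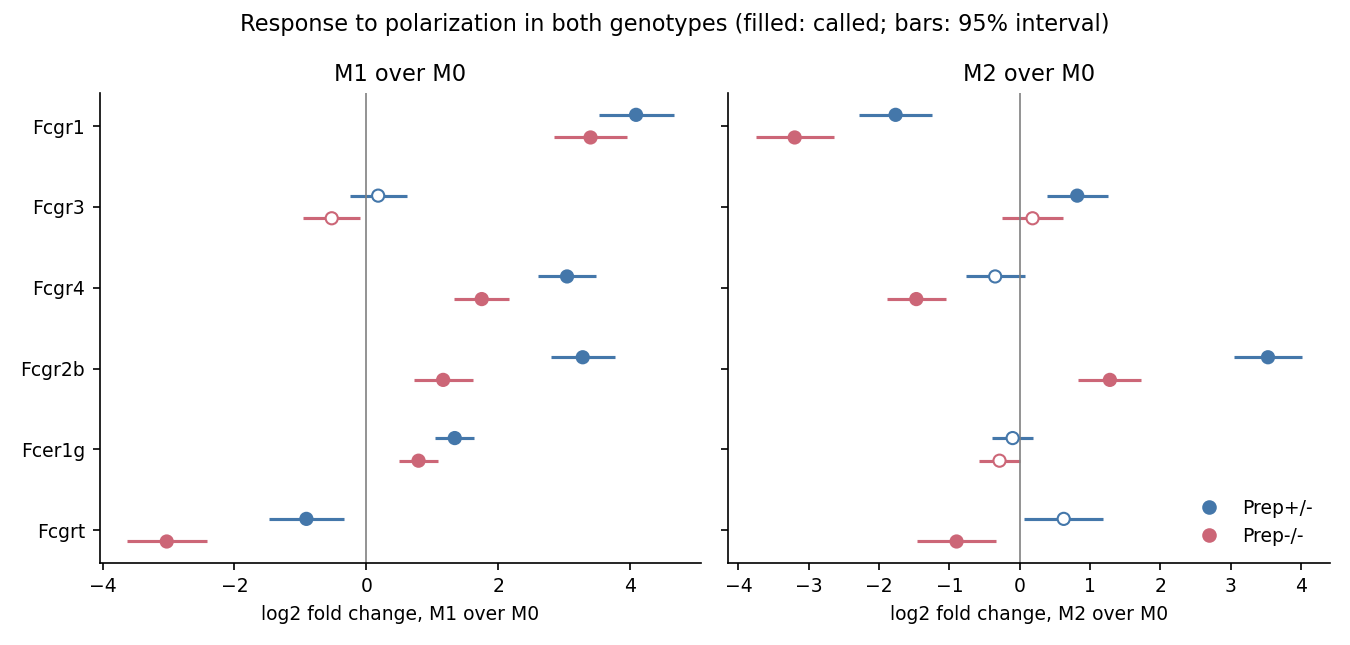
Log2 fold change over M0 (x) of the 6 genes (y) in M1 (left) and M2 (right), by genotype (colour), with 95% intervals; filled points are called. *Fcgr1* lies right of 0 in M1 and left of 0 in M2 in both genotypes, and *Fcgr2b* lies right of 0 in all 4 comparisons, further right in *Prep*+/- cells.

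To compare genes with each other, CPM was divided by the length of the canonical transcript in kilobases. By this measure of level, *Fcer1g* was the most abundant of the 6 in every group, from 818 ± 40.2 CPM per kb (SD, n = 3) in *Prep*+/- M2 to 2220 ± 217 in *Prep*+/- M1. The rank of the ligand-binding chains changed with the state. In *Prep*+/- M0 cells *Fcgr3* reached 318 ± 12.4 CPM per kb, *Fcgr1* 30.4 ± 3.12, *Fcgr4* 21.4 ± 2.49 and *Fcgr2b* 10.3 ± 1.64. *Fcgr3* was thus the main receptor transcript and *Fcgr2b* the least abundant. In *Prep*-/- M0 cells *Fcgr3* reached 641 ± 227 CPM per kb, *Fcgr4* 88.5 ± 15.1, *Fcgr2b* 68.6 ± 10.1 and *Fcgr1* 64.0 ± 23.0. There *Fcgr1* (50.1 to 90.6 CPM per kb) overlapped with *Fcgr2b* (57.6 to 77.5) and with *Fcgr4* (78.0 to 106). In M1 cells *Fcgr1* led with 518 ± 29.95 CPM per kb in *Prep*+/- and 676 ± 142 in *Prep*-/- libraries. In M2 cells *Fcgr3* led with 560 ± 58.2 and 728 ± 125 CPM per kb, and *Fcgr2b* came second among the signalling receptors with 119 ± 14.3 and 167 ± 57.9.

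The ratio of activating to inhibitory transcripts, the summed CPM per kb of *Fcgr1*, *Fcgr3* and *Fcgr4* over that of *Fcgr2b*, was highest in *Prep*+/- M0 cells. It was 29.98, 35.8 and 43.9 in the *Prep*+/- M0 libraries and 12.5, 12.7 and 8.88 in the *Prep*-/- M0 libraries. The genotypes did not overlap, and on the log2 scale the ratio was 5.18 ± 0.28 in *Prep*+/- and 3.49 ± 0.29 in *Prep*-/- cells (SD, n = 3), a difference of -1.69. As a score over chosen genes this ratio was not tested. The activating sum itself was higher in *Prep*-/- M0 libraries (793 ± 247 against 369 ± 17.4 CPM per kb). *Fcgr2b*, the denominator, was higher by a larger factor (6.66-fold), which lowers the ratio by its definition. In M1 the ratio was 10.2, 10.4 and 10.9 in *Prep*+/- libraries and 9.19, 8.34 and 10.1 in *Prep*-/- libraries, a difference of -0.19 on the log2 scale without overlap. In M2 it was 4.98, 4.79 and 5.01 in *Prep*+/- libraries and 4.53, 3.91 and 6.12 in *Prep*-/- libraries, a difference of -0.05 with overlap. The M2 difference turned to 0.0954 without *Prep*-/- M2 replicate 2 and to 0.16 with *Fcgr3* left out of the sum, and the M1 difference ranged from -0.26 to -0.12 when 1 library was left out.

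Between states the log2 ratio in *Prep*+/- cells differed by -1.78 from M0 to M1 and by -2.87 from M0 to M2, without overlap. In *Prep*-/- cells it differed by -0.29 from M0 to M1, with overlap, and by -1.23 from M0 to M2, without overlap. The parts of the activating sum did not move alike in M1. *Fcgr3* made up 86.0% ± 0.676 of the activating sum in *Prep*+/- M0 cells, 34.1% ± 0.854 in *Prep*+/- M1 cells and 95.6% ± 0.705 in *Prep*+/- M2 cells (SD, n = 3), and *Fcgr1* made up 8.21% ± 0.496, 49.1% ± 0.506 and 1.53% ± 0.414, respectively. Taken alone, *Fcgr3* per *Fcgr2b* was 25.8 to 37.5 in *Prep*+/- M0 libraries and 3.46 to 3.79 in *Prep*+/- M1 libraries, whereas *Fcgr1* per *Fcgr2b* was 2.31 to 3.83 in M0 and 4.95 to 5.38 in M1. With *Fcgr3* left out of the sum, the M1 ratio was the higher one in both genotypes, by 0.46 in *Prep*+/- and by 1.51 in *Prep*-/- cells on the log2 scale. The M1 against M0 difference in *Prep*-/- cells was also above 0 as a mean of log2 levels (0.41) and without length scaling (0.0372), so its direction depended on how the ratio was defined. The M2 against M0 difference in *Prep*-/- cells kept its direction, at -2.70 as a mean of log2 levels and at -3.19 with *Fcgr3* left out. *Fcer1g* per unit of the activating sum was 1.99 to 2.76 in *Prep*+/- M0 libraries and 0.951, 1.13 and 2.50 in *Prep*-/- M0 libraries, the highest being replicate 3.

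**Figure D4:**
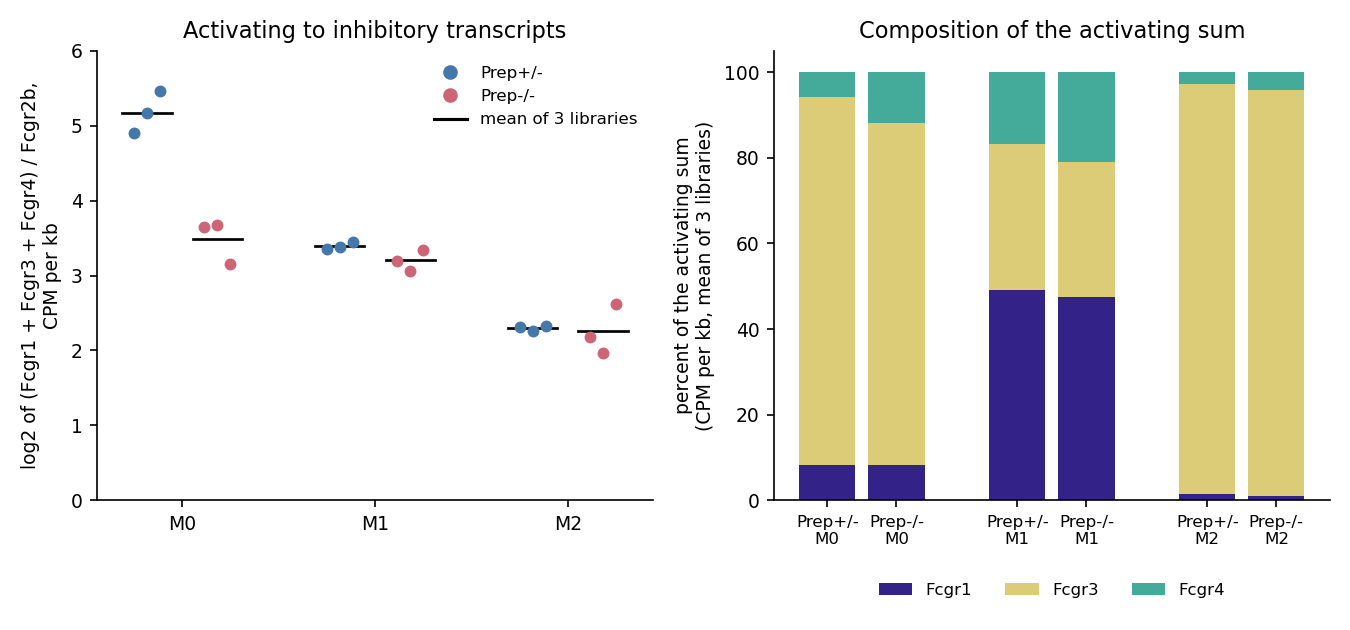
Left, log2 of the activating to inhibitory ratio in CPM per kb (y) of each library by state (x) and genotype (colour), with group means as bars; right, mean percent of the activating sum (y) that each receptor contributed in the 6 groups (x). The *Prep*+/- M0 libraries (4.91 to 5.46) lie above all others, and *Fcgr1* makes up 49.1% of the sum in *Prep*+/- M1 and 47.4% in *Prep*-/- M1 cells.

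Marker sums of other cells moved with some of these results. The summed level of the 9 macrophage markers was 30843 to 48619 CPM in *Prep*-/- M0 and 19407 to 22846 CPM in *Prep*+/- M0 libraries, without overlap. In M1 the order was reversed without overlap, with 29749 to 36379 CPM in *Prep*-/- and 45163 to 46727 CPM in *Prep*+/- libraries, and in M2 the *Prep*-/- libraries were again higher, with 14665 to 20401 against 10793 to 12945 CPM. Of these markers, *Lyz2* carried most of the sum, with M0 group means of 32264 CPM in *Prep*-/- and 17133 CPM in *Prep*+/- cells. The 10 listed granulocyte markers, cells that also express *Fcgr3*, *Fcgr4* and *Fcer1g*, summed to 67.9 to 156 CPM in *Prep*-/- M0 and 31.9 to 43.98 CPM in *Prep*+/- M0 libraries, and in M1 the order was the other way round, with 51.5 to 71.6 against 79.1 to 145 CPM. In M2 they summed to 30.9 to 47.1 CPM in *Prep*-/- and 25.1 to 30.7 CPM in *Prep*+/- libraries. Of these, 5 exceeded 1 CPM, and the neutrophil marker *Ly6g* was at most 3 counts in any library. The 4 measured of 6 B cell markers, cells that express *Fcgr2b*, summed to 8.66 to 11.5 CPM in *Prep*-/- M0 and 3.01 to 4.83 CPM in *Prep*+/- M0 libraries and, in M1, to 5.09 to 6.96 against 2.06 to 2.59 CPM, nearly all of it *Cd79b*, while *Cd79a*, *Ms4a1* and *Ebf1* had at most 4 counts in any library. The part of these cells in the results was not tested.

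Genes downstream of the receptors were examined in lists by function. Of 26 genes of ITAM signalling, M0 cells had 4 called higher in *Prep*-/- cells, M1 cells had 1 called higher, and M2 cells had 4 called higher beside 1 called lower. The shares of all genes called in these comparisons were 32.6%, 22.5% and 16.2%. The M0 count was 2 without *Prep*+/- M0 replicate 2 or *Prep*-/- M0 replicate 1, 8 without *Prep*-/- M0 replicate 3, and 0 in a test against the 1.5-fold minimum, and the M1 count was 0 without *Prep*-/- M1 replicate 1 and 2 when any of *Prep*+/- M1 replicate 1 and *Prep*-/- M1 replicates 2 and 3 was left out. The adaptor gene *Gab2* rose in M0 (46.1 ± 3.36 to 77.9 ± 16.2 CPM, SD, n = 3; edgeR adjusted p = 9.47e-04), *Pik3cd*, a catalytic subunit of phosphoinositide 3-kinase, rose in M1 (158 ± 16.8 to 245 ± 34.7 CPM; edgeR adjusted p = 6.08e-04, with the call lost at a log2 difference of 0.50 when *Prep*-/- M1 replicate 1 was left out and of 0.56 when *Prep*+/- M1 replicate 2 was), and in M2 *Pik3r5* rose (120.3 ± 8.13 to 254 ± 49.5 CPM; edgeR adjusted p = 1.99e-04) while *Pik3cg* fell (44.1 ± 3.27 to 21.96 ± 8.55 CPM; edgeR adjusted p = 0.00903). The last pair encodes a regulatory and a catalytic subunit of the same kinase class. *Syk*, the kinase recruited by the ITAM and named here after its values were seen, was called higher in M0 (log2 difference 0.82, SE 0.22, edgeR adjusted p = 0.00552, with overlapping libraries) and in M2 (0.83, SE 0.22, edgeR adjusted p = 0.0109), and in M1 its difference was 0.47 (SE 0.22, edgeR adjusted p = 0.0990). The median log2 fold change of the list was 0.27, 0.16 and 0.32 in the 3 states.

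Among 11 genes of inhibitory signalling, the M0 comparison called 1 higher and 1 lower, the M1 comparison 2 lower, and the M2 comparison 0 by edgeR, where 2 had an unadjusted p under 0.05 and DESeq2 called 0 (all genes called: 32.6%, 22.5% and 16.2%). The M1 count was 1 without *Prep*+/- M1 replicate 3, and the M2 count was 1 when *Prep*+/- M2 replicate 3 or any *Prep*-/- M2 library was left out. The median log2 fold change of this list was 0.15, 0.01 and 0.08 in the 3 states. *Ptprc*, which encodes the phosphatase CD45, rose in M0 (268 ± 25.7 to 463 ± 69.2 CPM; edgeR adjusted p = 1.58e-04). *Dok2*, an adaptor of inhibitory signals, fell in M0 (126 ± 20.8 to 64.8 ± 13.7 CPM; edgeR adjusted p = 0.00797) and in M1 (240.0 ± 33.9 to 79.8 ± 20.1 CPM; edgeR adjusted p = 5.72e-04). Of 31 tested genes of the phagocytic actin machinery, 4 were called in each state, beside 32.6%, 22.5% and 16.2% of all genes, with 2 of them higher for M0, 1 for M1 and 2 for M2, and median log2 fold changes of 0.02, -0.13 and 0.04. The M0 count was 7 without *Prep*+/- M0 replicate 1 or *Prep*-/- M0 replicate 3, the M1 count was 1 when *Prep*-/- M1 replicate 1 or *Prep*+/- M1 replicate 2 was left out and 2 without *Prep*+/- M1 replicate 3, and the M2 count was 2 without *Prep*+/- M2 replicate 1. *Marcks*, an actin-binding substrate of protein kinase C, rose in M0 (252 ± 41.9 to 517 ± 138 CPM; edgeR adjusted p = 4.57e-04) and in M2 (233 ± 15.9 to 447 ± 82.4 CPM; edgeR adjusted p = 0.00241). *Elmo1*, which activates RAC with DOCK proteins during engulfment, fell in M0 (99.9 ± 15.8 to 34.5 ± 1.34 CPM; edgeR adjusted p = 2.35e-06) and in M2 (67.8 ± 5.79 to 33.7 ± 9.02 CPM; edgeR adjusted p = 2.37e-04). In M1 the adaptor gene *Crkl* rose (46.2 ± 4.59 to 69.8 ± 11.3 CPM; edgeR adjusted p = 0.00159), at the fold minimum and not called without *Prep*-/- M1 replicate 1 (0.44 on the log2 scale) nor without replicate 2 (0.53) or 3 (0.56) of the *Prep*+/- M1 group, and *Bin1*, a membrane-curving protein, fell (180.2 ± 15.5 to 105 ± 16.6 CPM; edgeR adjusted p = 3.80e-04).

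**Figure D5:**
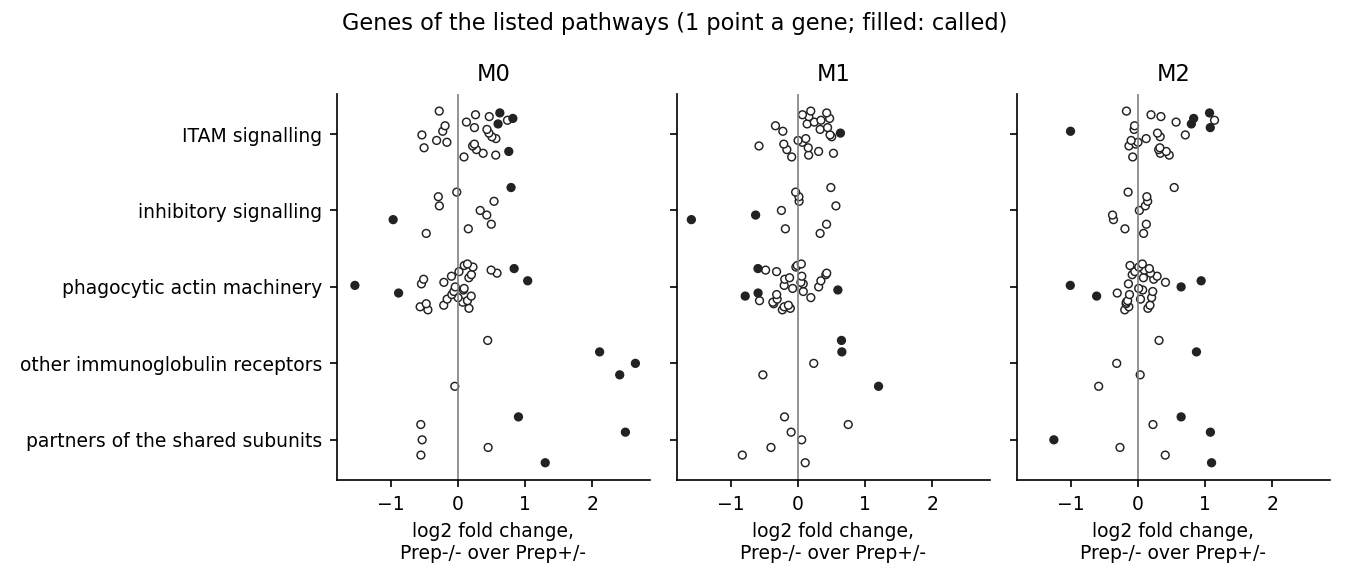
Log2 fold change of *Prep*-/- over *Prep*+/- cells (x) for each tested gene of 5 functional lists (y) in M0, M1 and M2; filled points are called. Most ITAM signalling and actin genes lie within 1 unit of 0, and the largest rises in M0 shown here are among other immunoglobulin receptors and partners of the shared subunits.

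Genes for related receptors were examined as well. Of 5 tested genes for other immunoglobulin receptors, M0 cells had 3 called higher, M1 cells 3 and M2 cells 1, beside 15.4%, 12.3% and 6.37% of all genes called higher, with medians of 2.11, 0.65 and 0.03 on the log2 scale. Of the 3 in M0, *Fcrla* and *Fcrlb* were under 1 CPM in both groups. The M1 count was 1 when *Prep*-/- M1 replicate 1 or *Prep*+/- M1 replicate 2 was left out, and the M2 count was 2 without *Prep*+/- M2 replicate 1. *Fcrls*, an Fc receptor-like gene, rose in M0 (64.1 ± 8.63 to 277 ± 43.4 CPM; edgeR adjusted p = 3.33e-06) and in M2 (94.1 ± 7.41 to 172 ± 30.3 CPM; edgeR adjusted p = 0.00844), and *Fcrl1* rose in M1 from a low level (3.07 ± 0.252 to 7.08 ± 1.21 CPM; edgeR adjusted p = 0.00130). Of 7 tested partners of the shared subunits, M0 cells had 3 called higher, M1 cells 0 by edgeR (2 at an unadjusted p under 0.05 and 0 by DESeq2), and M2 cells 3 called higher and 1 lower, beside the same shares of all genes called higher, with medians of 0.45, -0.10 and 0.41 on the log2 scale. The total called was 6 in M0 without *Prep*-/- M0 replicate 2, 1 in M1 without *Prep*+/- M1 replicate 1 and 2 in M2 without *Prep*-/- M2 replicate 1. *Clec4n*, which encodes Dectin-2, a fungal receptor that signals through the FcR gamma chain, rose in M0 (18.6 ± 2.61 to 105 ± 43.5 CPM; edgeR adjusted p = 1.09e-05), and *Clec4e*, which encodes Mincle, another receptor of that chain, fell in M2 (17.9 ± 3.03 to 7.52 ± 0.701 CPM; edgeR adjusted p = 2.31e-04). *B2m*, the light chain of the neonatal Fc receptor and of MHC class I, rose in M2 (1206 ± 165 to 2575 ± 368 CPM; edgeR adjusted p = 7.97e-05). It was also called in M0, the other state in which *Fcgrt* was called (1013 ± 61.2 to 2494 ± 377 CPM; edgeR adjusted p = 5.58e-06), while in M1 its difference was 0.11 (SE 0.15, edgeR adjusted p = 0.586); these values were added after they were seen.

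Across the 18 libraries, the genes fell into different patterns. Pearson's r of log2 CPM was 0.92 between *Fcgr1* and *Fcgr4*, 0.92 between *Fcgr1* and *Fcer1g* and 0.90 between *Fcgr4* and *Fcer1g*, and it was 0.11 between *Fcgr1* and *Fcgr2b* and -0.46 between *Fcgr1* and *Fcgr3*. *Fcgrt* varied most like *Fcgr3*, with r = 0.67. These values describe libraries that fall into 6 groups and carry no test. Among 9601 genes with a mean of at least 5 CPM, those most like *Fcgr4* were *Rnf114* (r = 0.99), *Trim30d* (0.99) and *Ifnar2* (0.99), and those most like *Fcgr1* were *Xylt2* (0.99), *Vav1* (0.99) and *Myd88* (0.99). The most similar genes were *Ube2l6* (0.99), *Prdx5* (0.99) and *Dhrs1* (0.985) for *Fcer1g*, and *Cnppd1* (0.98), *Paip2* (0.98) and *Maf1* (0.98) for *Fcgrt*. *Fcgr2b* and *Fcgr3* had fewer close matches: *Rnf130* (0.93), *Ube2q2* (0.92) and *Dedd* (0.91) for *Fcgr2b*, and *Cyth1* (0.94), *Tlr8* (0.93) and *Dse* (0.93) for *Fcgr3*. The share of genes with r over 0.9 was 0.0521% for *Fcgr2b* and 0.104% for *Fcgr3*, against 2.07% to 3.64% for the other 4.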

How the data were processed

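Per the labels and the study's methods, the authors prepared stranded mRNA libraries (TruSeq), trimmed paired reads with Trimmomatic 0.36, aligned them to GRCm39 with HISAT2 2.2.1.0, assembled transcripts with StringTie and deposited whole-number read counts per gene. The annotation release, the strand setting and the treatment of reads that match several genes are not given in the sources used here. From these counts, CPM (scaled by TMM factors, 0.818 to 1.20), CPM per kb of the canonical GENCODE transcript and log2 CPM (prior count 2) were computed. Differences were tested with the quasi-likelihood test of edgeR 4.0.16 in R 4.3.3, in 1 fit of all 18 libraries with a coefficient per group (filterByExpr, Benjamini-Hochberg adjustment over 12021 genes). SE is the size of the log2 difference over the square root of F. DESeq2 1.42.0, other scalings, filters, thresholds, blocks and leaving out each library were the alternatives. On simulated counts of the M0 genotype comparison (12021 genes), edgeR recovered 80.4% of the 2-fold and 96.1% of the 3-fold changes, with 2.75% of calls false. That simulation changed 200 genes, drew counts with the spread that edgeR had estimated and held no library that stood apart. In the data 32.6% of genes were called in this comparison, so these rates need not hold for them. Near copies were sought with blastn 2.17.0. The genes named beyond the 6 were those called in a list with the largest rise and the largest fall (mean of at least 5 CPM, no overlap of the genotypes) and the 3 genes most like each member. The genes and lists were chosen with earlier results of these data known. Permuting 3 libraries against 3 cannot give a two-sided p under 0.1, so no permutation test was used. Libraries with the same replicate number deviated together (r over 0.1 in every pair) in the genotype comparison of M2 (0.249, 0.255 and 0.462) and in M1 against M0 of *Prep*-/- cells (0.201, 0.169 and 0.259), and there the numbers were taken to pair the libraries.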

Additional observations from a re-analysis of the deposited data

Results flagged for a closer look

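The genotype effect differed between states, by a test of the difference itself (edgeR quasi-likelihood test, 3 libraries per group, adjusted over 12021 genes), for 8 values of the 6 genes. These were flagged at an adjusted p under 0.05 without a fold minimum, and the share of all genes under that rule is not given here. Between M1 and M0 the log2 fold change of *Prep*-/- over *Prep*+/- cells was lower in M1 for *Fcgr2b* (difference -2.12, adjusted p = 1.67e-04), *Fcgrt* (-2.12, adjusted p = 0.00103), *Fcgr4* (-1.29, adjusted p = 0.00319) and *Fcer1g* (-0.55, adjusted p = 0.0475). Between M2 and M0 it was lower in M2 for *Fcgr2b* (-2.25, adjusted p = 4.75e-04), *Fcgrt* (-1.52, adjusted p = 0.0192), *Fcgr1* (-1.44, adjusted p = 0.0170) and *Fcgr4* (-1.12, adjusted p = 0.0192). The *Fcer1g* value is the smallest of these and lies under the fold minimum. Its sign differs between the states, since *Fcer1g* differed by 0.30 in M0 and by -0.25 in M1, neither of which was called. With the fold minimum, 3 of the 6 genes were called between M1 and M0 and 4 between M2 and M0. The shares of all genes called in that direction were 9.15% and 4.13%. Between M2 and M0, only *Fcgr2b* kept its call in a test against the 1.5-fold minimum (glmTreat) and without *Prep*+/- M2 replicate 1.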

How the results depend on the processing

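No called value of the 6 genes changed sign: of 1008 values under an alternative, 959 kept their side of the threshold, 32 lost a call and 17 gained one. The 5 genes called between the genotypes in M0 kept their calls in all 15 alternatives. Counts of the 6 genes called differed, among other settings, with DESeq2 (difference between M1 and M0: 5), with a test against the 1.5-fold minimum (glmTreat, with 0 for M1, 0 for M2 and 1 for the difference between M2 and M0), with only the compared libraries in the fit (M2: 1) and with the replicate block there (difference between M2 and M1: 1). For M1 against M0, glmTreat lost the calls of *Fcgrt* in *Prep*+/- cells (glmTreat adjusted p = 0.141) and of *Fcer1g* in *Prep*-/- cells (glmTreat adjusted p = 0.0759). For M2 against M0, it lost those of *Fcgr3* in *Prep*+/- cells (glmTreat adjusted p = 0.433) and of *Fcgrt* in *Prep*-/- cells (glmTreat adjusted p = 0.19). Leaving out 1 library gave 0 to 2 for M1, 1 to 3 for M2, 1 to 5 for the difference between M2 and M0 and 0 to 1 for that between M2 and M1. For the difference between M1 and M0 it gave 3 to 4. For M1 against M0 it gave 4 to 5 in *Prep*+/- and 5 to 6 in *Prep*-/- cells, and for M2 against M0 in *Prep*-/- cells 3 to 4. In the paired comparisons, the replicate block over all 18 libraries changed no call of the 6 genes (M2: *Fcgr4* 0.92, adjusted p = 0.0011, and *Fcgrt* 0.90, adjusted p = 0.0196, edgeR). Leaving out 1 library in those comparisons kept the library of the same number on the other side. Elsewhere r was not over 0.1 in every pair, and the numbers were not taken to pair the libraries. A low r does not show that the libraries were unpaired. The log2 ratio depended on its definition. As a mean of log2 levels, it was -1.40 between the genotypes in M0, -0.85 and 0.41 for M1 against M0 in *Prep*+/- and *Prep*-/- cells, and -3.98 and -2.70 for M2 against M0. Without length scaling, M1 against M0 was -1.45 and 0.0372. With *Fcgr3* not counted, the genotypes differed by -1.20 in M0 and by 0.16 in M2, M1 against M0 was 0.46 and 1.51, and M2 against M0 was -4.55 and -3.19. With *Fcgr1* not counted, M1 against M0 was -2.63 and -1.09. Leaving out 1 library gave -0.23 to 0.0954 for the genotypes in M2, above 0 without *Prep*-/- M2 replicate 2. Pathway counts moved as follows, where glmTreat, the compared libraries, the blocks and the libraries left out were chosen after seeing the data. ITAM signalling in M1 was 2 with DESeq2, its size factors, 10 counts in every library, only the compared libraries or either replicate block, and other immunoglobulin receptors in M0 were 1 with 10 counts. Without a fold minimum, ITAM signalling was 13 in M0 and 5 in M1, inhibitory signalling 6, 5 and 2 in M0, M1 and M2, actin genes 10 in M0 and 10 in M1, and partners 5 in M0 and 1 in M1. With glmTreat, ITAM signalling was 0, 0 and 1 in M0, M1 and M2, inhibitory signalling 0 in M0 and 1 in M1, actin genes 0 in M1 and 1 in M2, other immunoglobulin receptors 1 in M1 and 0 in M2, and partners 2 in M2. With only the compared libraries, with or without the block, partners in M1 were 1, and with that block ITAM signalling in M0 was 1. Leaving out 1 library gave ranges of 2 to 8 (M0) and 0 to 2 (M1) for ITAM signalling, 1 to 3 (M1) and 0 to 1 (M2) for inhibitory signalling, 4 to 7, 1 to 5 and 2 to 4 for actin genes in M0, M1 and M2, 1 to 3 (M1) and 1 to 2 (M2) for other immunoglobulin receptors, and 3 to 6, 0 to 1 and 2 to 4 for partners. The cause of these changes was not tested. With 3 libraries per group, small differences can be missed, and genes under 1 CPM rest on few counts.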
